A study of Homo sapiens with 24 samples.

Results

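The prostate kallikreins examined here were 7 genes of the kallikrein-related peptidase family, KLK2, KLK3, KLK4, KLK15, KLK1, KLK10 and KLK11, chosen by name out of 60675 genes in the count tables. Each was followed through all 24 RNA sequencing libraries, which came from 2 established prostate cancer cell lines. LNCaP:C42 is a castration-resistant derivative of the androgen-sensitive LNCaP line, and 22Rv1 was derived from a relapsed human prostate cancer xenograft. In each line a non-targeting siRNA pool (siSCR) or a pool against METTL3 (siMETTL3) was combined with 1 nM R1881 or its ethanol vehicle, with 3 libraries for each of the 8 conditions. Both siRNA pools were given again after 48 h, when the 72 h treatment started, and every library, controls included, came from transfected cells kept in medium with charcoal-stripped serum, which is low in steroids. METTL3 is the catalytic subunit of the enzyme that writes N6-methyladenosine on mRNA, and R1881 (methyltrienolone) is a synthetic androgen that is hardly metabolised. The design therefore asks, for each kallikrein, how its mRNA responded to androgen, whether that response differed between the lines, and whether it depended on METTL3. The labels do not say whether the 3 libraries of a condition came from separate cultures, so p-values measure the spread between these libraries, which may be technical.

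Kallikrein-related peptidases are secreted serine proteases, made as inactive precursors and encoded side by side in a single cluster on the long arm of chromosome 19. Luminal cells of the prostate release several of them into seminal fluid, where KLK3 (prostate-specific antigen, PSA) liquefies the semen clot by cutting semenogelins. KLK2 and KLK3 are textbook androgen-induced genes with androgen response elements in their promoters, and their use as markers of androgen signalling in prostate cancer rests on that. KLK2, KLK4 and KLK15 are trypsin-like enzymes that can activate the KLK3 precursor in the test tube, KLK1 is the tissue kallikrein that releases kinins from kininogen, and KLK10 and KLK11 are members that many epithelia express.

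In GRCh38, the build of the files, the 7 genes lie on chromosome 19 in the order KLK1, KLK15, KLK3, KLK2, KLK4, KLK10 and KLK11, with the pseudogene KLKP1 between KLK2 and KLK4. KLK3 (ENSG00000142515, chr19:50854915-50860764) and KLK2 (ENSG00000167751, chr19:50861568-50880567) are neighbours on the plus strand. KLK1 (ENSG00000167748, chr19:50819148-50823787), KLK15 (ENSG00000174562, chr19:50825289-50837213) and KLK4 (ENSG00000167749, chr19:50906352-50910738) are on the minus strand. So are KLK10 (ENSG00000129451, chr19:51012739-51020175) and KLK11 (ENSG00000167757, chr19:51022216-51028039). The coding sequences of KLK2 and KLK3 are equally long (783 bases without the stop codon) and 85.3% identical, those of KLK2 and KLK1 75.9%, and of KLK3 and KLK1 74.0%, while the other pairs lie between 51.2% and 62.7%. Reads can nevertheless be told apart: 11 of the 2780 runs of 50 bases in the canonical KLK2 transcript (0.396%) also occur in that of KLK3, and no such run is shared by another pair. Of the exon bases of KLK10, 6.23% also belong to an overlapping gene of the annotation, and its counts are uncertain to that extent, whereas the exons of the other 6 genes overlap no other gene.

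The promoters of KLK3 and KLK2 are shown because these genes had the largest responses to R1881 among the members tested in LNCaP:C42. In 22Rv1 neither gene was called with R1881. A further reason is that their promoters are themselves copies of each other. The windows hold the 250 bases before the RefSeq transcript start and the 50 bases from the start on, in GRCh38.p14 and on the plus strand, at chr19:50854665-50854964 for KLK3 and chr19:50873189-50873488 for KLK2. Capitals mark the best match to the androgen response element, here written as AGAACA, 3 bases of any kind and TGTTCT and searched on both strands.
KLK3: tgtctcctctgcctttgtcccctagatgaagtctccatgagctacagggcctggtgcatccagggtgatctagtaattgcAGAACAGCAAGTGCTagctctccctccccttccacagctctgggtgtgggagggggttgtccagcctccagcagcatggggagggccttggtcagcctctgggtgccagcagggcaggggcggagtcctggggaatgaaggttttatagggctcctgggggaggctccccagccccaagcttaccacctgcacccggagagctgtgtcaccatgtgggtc
KLK2: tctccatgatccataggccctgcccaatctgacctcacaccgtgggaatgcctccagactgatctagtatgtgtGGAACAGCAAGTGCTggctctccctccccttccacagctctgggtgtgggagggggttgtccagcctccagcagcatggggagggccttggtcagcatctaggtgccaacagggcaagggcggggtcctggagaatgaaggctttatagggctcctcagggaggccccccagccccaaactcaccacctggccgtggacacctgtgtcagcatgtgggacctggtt
The element lies at chr19:50854745-50854759 in KLK3, -170 to -156 from the start, and matches 10 of the 12 fixed bases, with T10A and T13G relative to the motif (positions counted from 1 at its 5′ end). In KLK2 it lies at chr19:50873263-50873277, -176 to -162 from the start, and matches 9 of 12, differing from that of KLK3 by A1G alone. Aligned end to end, both windows have 245 identical positions, 46 mismatches and 18 gap bases, an identity of 79.3%. A match with at most 2 mismatches occurs in 1.41% of the 35116 RefSeq promoter windows and, among the 6 members with a window, in KLK3 only; with 3 allowed it occurs in 10.8% of all windows and in KLK3 and KLK2. The best matches of KLK4, KLK15, KLK10 and KLK11 in these windows have 4 to 6 mismatches. The single arm AGAACA, on either strand, occurs in 14.8% of windows and, of the members, in KLK3 only. TATAAA was searched on the strand of the gene only. It occurs there in 7.33% of windows and, of the members, in KLK15 only. The windows of KLK3 and KLK2 shown above hold TTTATA, its reverse complement, which was not counted. These matches describe letters and not measured binding, and elements outside the windows were not searched.

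The libraries held 15716224 to 21306019 counts assigned to genes (median 17671721), so that 1 CPM (a counts-per-million value) stands for about 15.5 counts in the library with the smallest total after scaling, and for more in the others. METTL3 mRNA, the target of the siRNA pool, was lower in every siMETTL3 library than in every siSCR library of the same line and treatment. Its mean changed by -33.7% in vehicle and -32.6% in R1881 in LNCaP:C42, where it fell from 33.4 to 22.5 CPM in R1881, and in 22Rv1 it fell from 46.0 to 24.9 and from 50.4 to 22.4 CPM. METTL3 mRNA was thus lowered in part in both lines, and protein was not measured in these data. The 8 markers of luminal prostate cells summed to 3209 to 5024 CPM per library in LNCaP:C42 and 1639 to 1766 CPM in 22Rv1, against at most 1.03 CPM for the 3 basal markers and 1.62 CPM for the leukocyte marker PTPRC. Of the neuroendocrine markers, ENO2 in LNCaP:C42 had means of 62.9 and 137 CPM in vehicle and R1881 under siSCR and 155 and 192 CPM under siMETTL3, while SYP stayed under 2 CPM on average and CHGA under 1 CPM. In 22Rv1 the means over the 4 conditions were 78.4 to 110 CPM for SYP and 116 to 176 CPM for ENO2, and CHGA again lay under 1 CPM. The 3 fibroblast markers summed to 38.6 to 71.97 CPM in LNCaP:C42, where COL3A1 and DCN had at most 3 counts in any library, and to 15.3 to 29.4 CPM in 22Rv1. There COL1A1 was at 26.03 and 15.8 CPM in vehicle and R1881 under siSCR. The part of these markers in the results was not tested. Within a condition, single libraries stood apart in counts over all genes, most of all the first siMETTL3 vehicle library of LNCaP:C42 (chi-square per degree of freedom of 38.5 and 41.7 against its companions, where the others had 4.11 between them) and the first siSCR library with R1881 of that line (30.5 and 30.8, against 3.05). The third siSCR vehicle library of LNCaP:C42 also stood apart (10.3 and 10.7, against 3.35) and was lowest for KLK2, KLK3, KLK4, KLK15 and KLK1. In 22Rv1 the third siSCR vehicle library (16.7 and 11.8, against 3.503) and the first siMETTL3 vehicle library (17.6 and 16.2, against 3.78) stood apart, and without them the fall of KLK4 with R1881 was -0.95 under siSCR and -0.70 under siMETTL3. Leaving out any 1 library moved the R1881 response of KLK3 in LNCaP:C42 under siSCR only between 3.95 and 4.17 on the log2 scale, and that of KLK2 between 3.83 and 4.10.

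R1881 raised every kallikrein that could be tested in LNCaP:C42, with KLK3 and KLK2 rising over 15-fold and KLK4, KLK15 and KLK1 rising 2.53-fold to 2.68-fold. KLK3 counts in siSCR cells were 402, 390 and 274 in vehicle and 6247, 4886 and 6052 in R1881, and KLK2 counts were 314, 341 and 209 against 4334, 3861 and 4871. Every R1881 library stood more than 10-fold above every vehicle library for both genes. The fold change, expressed as log2 with its standard error, was 4.08 ± 0.13 for KLK3 (16.9-fold, adjusted p = 9.19e-12) and 3.99 ± 0.17 for KLK2 (15.9-fold, adjusted p = 2.33e-10), with 95% intervals of 3.79 to 4.37 and 3.62 to 4.36 that overlap. These p-values are from the quasi-likelihood test of edgeR, adjusted over all genes tested by the method of Benjamini and Hochberg, and a gene was called changed at an adjusted p under 0.05 and a change of at least 1.5-fold.

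The other 3 members tested rose by less. KLK4 had 906, 870 and 575 counts in siSCR vehicle and 2257, 1670 and 2070 in R1881, a log2 fold change of 1.42 ± 0.15 (adjusted p = 4.95e-06). KLK15 rose from 143, 144 and 124 counts to 347, 289 and 358, by 1.34 ± 0.12 (adjusted p = 5.31e-07). KLK1 rose from 243, 212 and 185 counts to 536, 456 and 613, by 1.39 ± 0.15 (adjusted p = 4.20e-06). For these 3 genes, too, no R1881 library overlapped a vehicle library, and their intervals (1.10 to 1.75, 1.09 to 1.59 and 1.08 to 1.70) lie below those of KLK3 and KLK2. The 5 of 5 members called higher compare with 7.39% of the 16435 genes tested in this comparison, a share that is 5.63% when counts are scaled by library size alone.

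KLK10 and KLK11 were at the edge of detection in LNCaP:C42 and were not tested there. KLK10 had 1 count in the 12 libraries together, in the third siSCR library with R1881. KLK11 had at most 4 counts in any library. Because these were RNA measurements on whole cultures, fewer expressing cells and less RNA per cell cannot be told apart for any of the genes.

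In 22Rv1 no kallikrein was called higher with R1881, and KLK4, KLK1 and KLK11 fell. KLK4, the most abundant kallikrein there, fell from 3957, 3373 and 2727 counts in siSCR vehicle to 1982, 1815 and 1779 in R1881, a log2 change of -0.83 ± 0.10 (adjusted p = 7.64e-07). KLK11 fell from 60, 56 and 61 counts to 22, 27 and 20, by -1.34 ± 0.23 (adjusted p = 1.19e-04). KLK1 fell from 1062, 975 and 1008 counts to 662, 658 and 680, by -0.59 ± 0.08 (adjusted p = 7.91e-06). In all 3 genes the vehicle libraries lie entirely above the R1881 libraries. The change of KLK1 lay at the fold threshold itself, and just below it without the first vehicle library (-0.57), without the third (-0.58) or without the first R1881 library (-0.58). The 3 of 7 members called lower compare with 9.64% of 17865 genes tested in 22Rv1.

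The changes of KLK3 and KLK2 in 22Rv1 were confined to narrow intervals. KLK3 had 134, 119 and 119 counts in siSCR vehicle and 114, 111 and 139 in R1881, and KLK2 had 666, 561 and 537 against 647, 533 and 602, so that the groups overlap for both. The 95% interval of the log2 change was -0.34 to 0.31 for KLK3 and -0.18 to 0.24 for KLK2, and both intervals end short of 1.5-fold in either direction. KLK15 had 182, 174 and 145 counts against 147, 132 and 164 (interval -0.43 to 0.11). KLK10 had 5, 7 and 6 counts in vehicle and 6, 0 and 4 in R1881, too few to show a change of the size seen for KLK11 (interval -2.16 to 0.54).

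**Figure D1:**
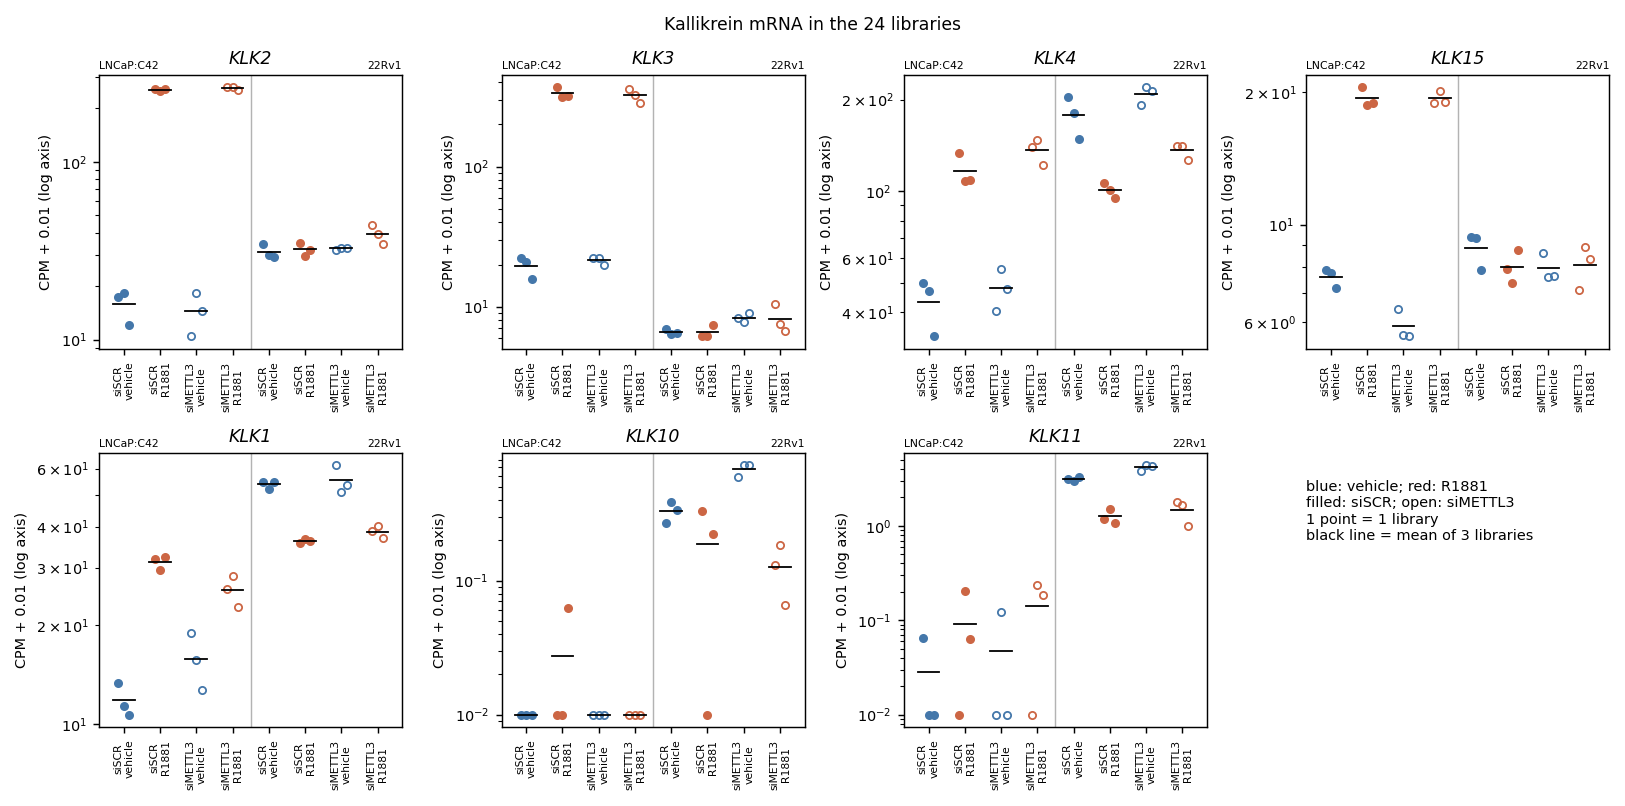
Level of each kallikrein in the 24 libraries, in CPM (counts-per-million, scaled by TMM over all libraries) plus 0.01 on a log axis that differs between panels; points are libraries, black lines the means of 3, blue is vehicle, red is R1881, and open symbols are siMETTL3. KLK2 and KLK3 of LNCaP:C42 with R1881 lie between 249 and 370 CPM, apart from all other conditions, whereas KLK4, KLK1 and KLK11 are highest in 22Rv1 with vehicle.

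FKBP5, a co-chaperone of steroid receptors and a classical androgen-induced gene, was raised by R1881 in both lines. It rose by 3.49 ± 0.10 in LNCaP:C42 and by 3.33 ± 0.07 in 22Rv1 under siSCR, and the difference between the lines was -0.17 ± 0.11 (adjusted p = 0.324). For 5 members the difference passed the test: under siSCR KLK3, KLK2, KLK4, KLK1 and KLK15 had a lower log2 response in 22Rv1 than in LNCaP:C42. Over all genes, 9.02% of 19437 passed in that direction, a share that was 10.5% with RLE size factors and 7.96% with library size alone. KLK10 and KLK11, at the edge of detection in LNCaP:C42, passed the filter here only through 22Rv1 and are not counted. Under siMETTL3 the same 5 members passed, against 6.83% of all genes, or 8.40% with RLE size factors.

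**Figure D2:**
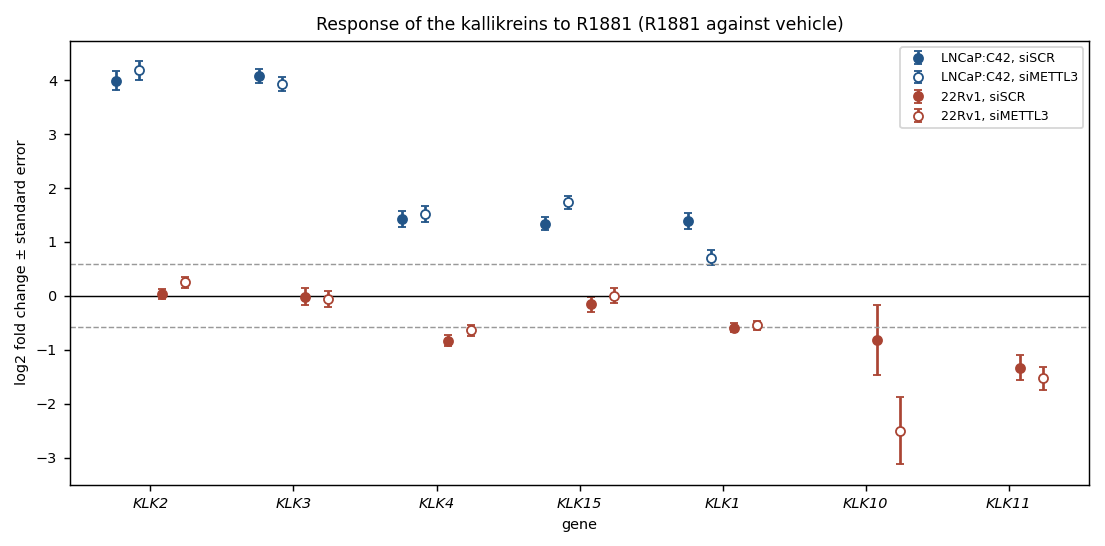
Log2 fold change of each kallikrein with R1881 against vehicle, with its standard error, in LNCaP:C42 (blue) and 22Rv1 (red) under siSCR (filled) and siMETTL3 (open); dashed lines mark 1.5-fold. In LNCaP:C42 the 5 genes tested lie above 0, between 0.71 and 4.18. In 22Rv1 the values run from 0.25 down to -1.53, apart from KLK10 under siMETTL3 at -2.50, from which no call is read. KLK10 and KLK11 were too low to be tested in LNCaP:C42.

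As the lines responded differently, they also ranked differently depending on the treatment. In siSCR vehicle, 22Rv1 had more KLK1 (log2 difference 2.19 ± 0.12, adjusted p = 6.45e-15), more KLK4 (2.04 ± 0.14, adjusted p = 4.45e-13) and more KLK2 (0.97 ± 0.14, adjusted p = 7.83e-07) than LNCaP:C42, and less KLK3 (-1.57 ± 0.14, adjusted p = 1.95e-10). KLK15 did not pass (0.23, interval -0.02 to 0.47). In R1881 the order of the lines for KLK2 was turned round, with a log2 difference of -2.98 ± 0.14 (adjusted p = 1.42e-16), and KLK3 was 50.9-fold lower in 22Rv1 (-5.67 ± 0.15, adjusted p = 8.69e-22). KLK15 was then lower in 22Rv1 as well (-1.28 ± 0.12, adjusted p = 1.69e-10), while KLK4 (interval -0.49 to 0.06) and KLK1 (-0.02 to 0.45) differed by less than 1.5-fold. Of these 5 members, 3 were called higher and 1 lower in 22Rv1 in vehicle, and 0 higher and 3 lower in R1881. KLK10 and KLK11 passed the filter of this comparison only through 22Rv1, where they are higher, and are not counted. Over all genes 59.2% differed between the lines in vehicle (31.2% higher and 27.9% lower in 22Rv1) and 60.1% in R1881 (32.6% and 27.5%), so that a difference between the lines was common.

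KLK10 and KLK11 were detected mainly in 22Rv1. KLK11 had 177 counts in the 3 siSCR vehicle libraries of 22Rv1 and 1 in those of LNCaP:C42, a ratio of 169 after scaling (exact 95% interval 30.01 to 6728, counting error only). The single count was in 1 library, and without it KLK11 was at least 37.5-fold higher in 22Rv1, with 3 counts over the other 2 libraries in place of 0. With R1881 it had 69 and 4 counts. Under siMETTL3 the ratios were 108 in vehicle (29.6 to 898) and 10.9 in R1881 (5.05 to 28.1). KLK10 had 18 and 0 counts in vehicle, so that it was at least 5.74-fold higher in 22Rv1 when the 0 is replaced by 3 counts over the group. With R1881 its counts were 10 and 1 and the ratio was 9.27 (1.32 to 402).

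The level of each gene over the 8 conditions, as mean CPM ± SD of 3 libraries, fell into few steps. KLK3 was highest in LNCaP:C42 with R1881 (335 ± 30.5 under siSCR and 323 ± 37.9 under siMETTL3), followed by LNCaP:C42 in vehicle (19.6 ± 3.34 and 21.4 ± 1.32) and 22Rv1 (6.57 to 8.34), and neighbouring conditions within each of these 3 steps overlap. KLK2 had the steps 254 ± 4.23 and 260 ± 5.91 in LNCaP:C42 with R1881, 31.2 to 39.4 in 22Rv1, and 15.9 ± 3.34 and 14.4 ± 3.89 in LNCaP:C42 in vehicle. Within these steps, KLK2 conditions that were neighbours in rank stood apart only in 22Rv1. There the siMETTL3 libraries with R1881 (34.7 to 44.1 CPM) lay above those with vehicle (31.9 to 32.9), but they overlapped the siSCR libraries with R1881 (29.6 to 34.8).

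KLK4 had a different order: it was highest in 22Rv1 in vehicle (209 ± 14.4 under siMETTL3 and 177 ± 27.9 under siSCR) and lowest in LNCaP:C42 in vehicle (47.8 ± 7.56 and 43.3 ± 8.83). The R1881 conditions of both lines lay between, at 101 to 136 CPM. KLK1 had the same extremes, 55.3 ± 5.44 and 53.9 ± 1.54 against 15.8 ± 3.12 and 11.8 ± 1.39. KLK15 was highest in LNCaP:C42 with R1881 (19.4 under both siRNA pools) and lowest in LNCaP:C42 with siMETTL3 and vehicle (5.85 ± 0.49), with the 4 conditions of 22Rv1, 7.94 to 8.85, overlapping each other and the lowest of them overlapping siSCR vehicle of LNCaP:C42 (7.59 ± 0.37). KLK11 was highest in 22Rv1 in vehicle (4.18 ± 0.30 under siMETTL3 and 3.13 ± 0.17 under siSCR, libraries apart) and lower there with R1881 (1.48 ± 0.42 and 1.25 ± 0.23, overlapping).

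To compare levels between genes, CPM was divided by the exon length of each gene in kilobases (FPKM). On that scale the 7 genes together rose with R1881 from 37.4 ± 6.43 to 194 ± 15.2 FPKM in siSCR cells of LNCaP:C42 and fell from 126 ± 15.1 to 77.7 ± 2.93 FPKM in 22Rv1. KLK4 held the largest share of that sum in vehicle, 59.6% in LNCaP:C42 and 72.8% in 22Rv1. With R1881 the share of KLK3 in LNCaP:C42 rose from 11.3% ± 0.05 to 37.2% ± 0.51, and that of KLK4 was 31.1% ± 1.41. In 22Rv1 KLK4 remained at 67.0% and KLK3 went from 1.14% ± 0.11 to 1.83% ± 0.26. An exact two-sided permutation test of the share of KLK3 gave p = 0.1 in each line, the smallest value that 3 against 3 libraries allow.

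Shares between genes depend on which length is used. The exon length counts all annotated isoforms, 4639 bases for KLK3, whereas its canonical transcript has 1464 bases, and for KLK1 the lengths are 2378 and 876 bases. With canonical lengths, an alternative chosen after the data were seen, KLK3 held 19.5% of the sum in vehicle and 50.7% in R1881 in siSCR cells of LNCaP:C42, and KLK4 18.3% in R1881. In 22Rv1 KLK4 remained the largest under both lengths, with 59.0% in vehicle and 52.6% in R1881.

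The ratio of KLK2 to KLK3 counts needs no length when it is compared between conditions. It was 0.81 ± 0.06 in siSCR vehicle and 0.76 ± 0.06 in R1881 in LNCaP:C42, with overlapping libraries. In 22Rv1 under siSCR it was 4.73 ± 0.23 and 4.94 ± 0.68, which overlap, and under siMETTL3 it was 3.91 ± 0.27 in vehicle and 4.89 ± 0.55 in R1881, which do not. The lines thus differed in this ratio with no overlap in any condition, and within LNCaP:C42 the ratio overlapped between vehicle and R1881.

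**Figure D3:**
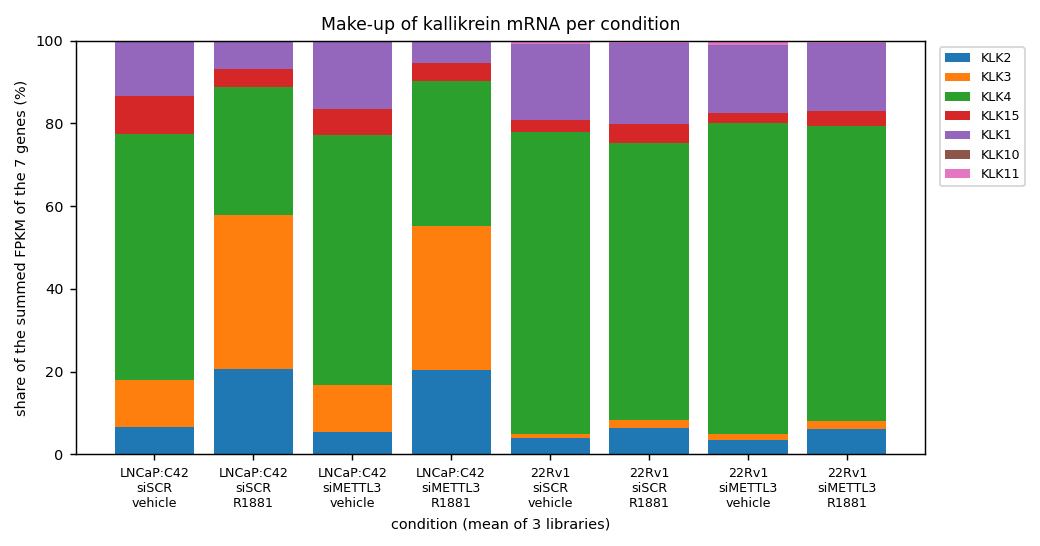
Share of each kallikrein in the summed FPKM of the 7 genes, as the mean of 3 libraries in each of the 8 conditions. KLK3 takes 37.2% in LNCaP:C42 with R1881 under siSCR and at most 1.83% in 22Rv1, where KLK4 takes 67.0% to 75.4%.

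No kallikrein was called between siMETTL3 and siSCR in either line or treatment. In LNCaP:C42, 0 of 5 members were called in vehicle, where 1.2% of all genes were, and 0 of 5 in R1881, where 0.7% were. These shares rest on single libraries. In vehicle 197 genes were called, but 0 without the third siSCR vehicle library (with 1858 at an unadjusted p under 0.05), 6 without the first, 129 without the second and 8 without the second siMETTL3 vehicle library, and 339 and 320 without the first siMETTL3 vehicle or first siSCR R1881 library. In R1881 115 were called, with 797 and 1497 without these same libraries in that order and 1 to 54 without either other siSCR R1881 library, any siMETTL3 R1881 library or the first or second siSCR vehicle library. KLK3 had 349, 397 and 354 counts in siMETTL3 vehicle libraries and 6141, 5774 and 4905 in R1881, overlapping the siSCR libraries in both treatments. Its log2 difference between the siRNA pools was 0.10 (95% interval -0.17 to 0.38) in vehicle and -0.05 (-0.30 to 0.20) in R1881. For KLK2 the values were -0.16 (-0.52 to 0.20) and 0.03 (-0.29 to 0.35), and for KLK4 0.13 (-0.19 to 0.45) and 0.22 (-0.09 to 0.54).

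The members that came nearest to a difference in LNCaP:C42 were KLK15 and KLK1, both in vehicle. KLK15 had 101, 100 and 99 counts under siMETTL3 against 143, 144 and 124 under siSCR, with no overlap, a log2 difference of -0.40 ± 0.12 (unadjusted p = 0.0062, adjusted p = 0.124). KLK1 had 299, 281 and 227 counts against 243, 212 and 185, which overlap, a difference of 0.40 ± 0.15 (adjusted p = 0.193). In R1881 KLK15 differed by 0.00 (-0.23 to 0.24) and KLK1 by -0.28 (-0.58 to 0.02), with KLK1 counts of 442, 500 and 392 under siMETTL3.

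In 22Rv1, 0 of 7 members were called in vehicle (0.202% of genes) and 0 of 7 in R1881 (3.29% of genes). The 36 genes called in vehicle were 228 and 15 without the first and second siMETTL3 vehicle library and 87 and 23 without the first and second siSCR vehicle library, and the 587 called in R1881 were 309 without the first siMETTL3 and 349 without the second siSCR library with R1881. KLK4 came nearest: in R1881 it had 2317, 2444 and 2286 counts under siMETTL3 against 1982, 1815 and 1779 under siSCR, with no overlap. Its log2 difference of 0.42 ± 0.10 had an adjusted p of 0.00771 but amounts to less than 1.5-fold. KLK2 in R1881 differed by 0.27 (interval 0.07 to 0.48, adjusted p = 0.061), and KLK3 by 0.34 in vehicle (0.02 to 0.65, adjusted p = 0.316) and 0.30 in R1881 (-0.03 to 0.62). KLK10 had 11, 17 and 14 counts in siMETTL3 vehicle libraries, against 5, 7 and 6 in siSCR (adjusted p = 0.339), and it passed the filter on low counts only through that condition.

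**Figure D4:**
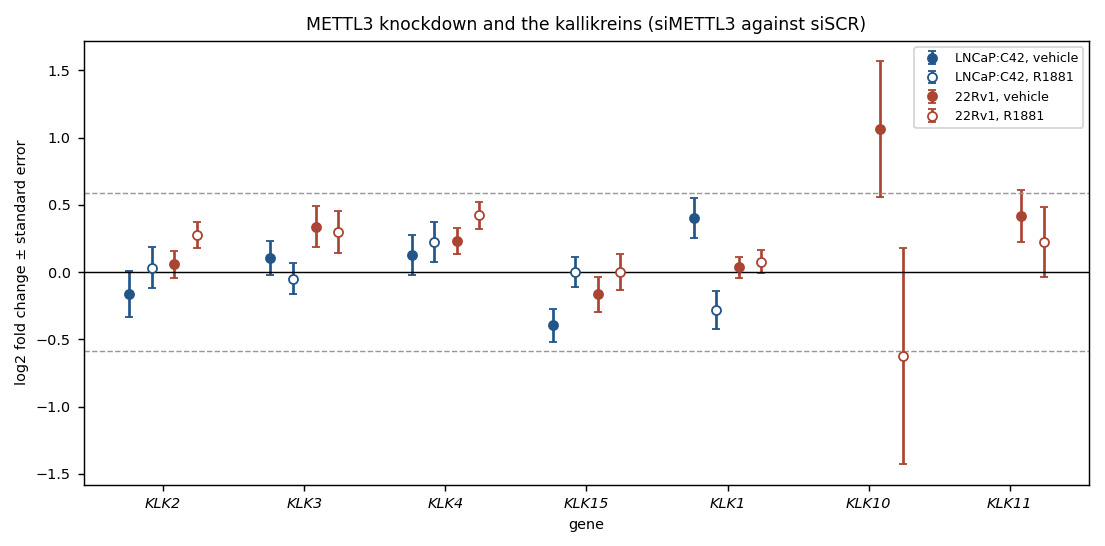
Log2 difference of each kallikrein between siMETTL3 and siSCR, with its standard error, in LNCaP:C42 (blue) and 22Rv1 (red) in vehicle (filled) and R1881 (open); dashed lines mark 1.5-fold. Apart from KLK10, with at most 17 counts per library, every value lies between -0.40 and 0.42.

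The response to R1881 was also measured under siMETTL3. In LNCaP:C42 KLK3 rose by 3.93 ± 0.13, KLK2 by 4.18 ± 0.18, KLK15 by 1.74 ± 0.12, KLK4 by 1.52 ± 0.15 and KLK1 by 0.71 ± 0.14 (adjusted p = 0.00268 for KLK1 and below that for the others), so that 5 of 5 members were called higher where 5.09% of all genes were. Without the third siMETTL3 vehicle library KLK1 rose by 0.58, just under 1.5-fold. In 22Rv1, KLK4 (-0.64 ± 0.10, adjusted p = 2.03e-05) and KLK11 (-1.53 ± 0.22, adjusted p = 1.23e-05) were called lower, against 9.29% of all genes. KLK1 was lower as well (-0.55 ± 0.08, adjusted p = 1.96e-05) but by less than 1.5-fold. KLK2 differed by 0.25 ± 0.10 (adjusted p = 0.0569) and was not called. The counts of KLK10 were 11, 17 and 14 in vehicle and 2, 3 and 1 in R1881, but it passed the filter only through that vehicle condition, so no call is read from it.

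Tested directly, the difference in the R1881 response between the siRNA pools passed for no member. The nearest in LNCaP:C42 were KLK1, with a difference of -0.68 ± 0.20 (unadjusted p = 0.00442, adjusted p = 0.314), and KLK15, with 0.40 ± 0.17 (adjusted p = 0.382). The interval was -0.52 to 0.21 for KLK3 and -0.29 to 0.68 for KLK2 in LNCaP:C42, and -0.09 to 0.47 for KLK4 in 22Rv1. This test called 0% of all genes in LNCaP:C42 with edgeR, where 2037 genes had an unadjusted p under 0.05 and DESeq2 called 60, and 0.0168% in 22Rv1. Leaving out 1 library gave up to 8 genes in LNCaP:C42 (without the third siMETTL3 vehicle library) and 30 in 22Rv1 (without the third siSCR vehicle library). DESeq2 called 0 members in this test as well.

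The remaining genes of the cluster were followed to see how far along the chromosome the response reached. Of the other 9 genes, KLK5, KLK6, KLK7, KLK8, KLK9 and KLK13 were below the count filter in both lines. KLKP1, the pseudogene between KLK2 and KLK4, rose in LNCaP:C42 from 15, 18 and 36 counts in siSCR vehicle to 89, 73 and 96 in R1881, by 1.95 ± 0.38 (adjusted p = 0.00144), and in 22Rv1 it had 100, 108 and 114 counts in vehicle and 65, 83 and 109 in R1881 (adjusted p = 0.192). KLK14 was tested in 22Rv1 only (0.36 ± 0.44, adjusted p = 0.58). KLK12 had 2, 2 and 1 counts in siSCR vehicle and 14, 9 and 9 in R1881 in LNCaP:C42, and 7, 12 and 6 against 17, 12 and 19 under siMETTL3. It passed the filter mainly through the R1881 libraries, so no call is read from it, and it is named after its values were seen. Of the genes flanking the cluster, C19orf48 on the KLK1 side rose by 0.97 ± 0.12 (adjusted p = 3.39e-05) in LNCaP:C42 and changed by -0.48 ± 0.08 in 22Rv1, under 1.5-fold. ACP4, which lies beyond the same end, had a log2 change of 1.53 ± 0.49 in LNCaP:C42 (adjusted p = 0.0315), a call lost without the first or the third vehicle library or without the first or second R1881 library (1.07 to 1.59, adjusted p from 0.0523 to 0.142), and CTU1 on the KLK14 side differed by -0.11 ± 0.23 there and by 0.05 ± 0.16 in 22Rv1.

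**Figure D5:**
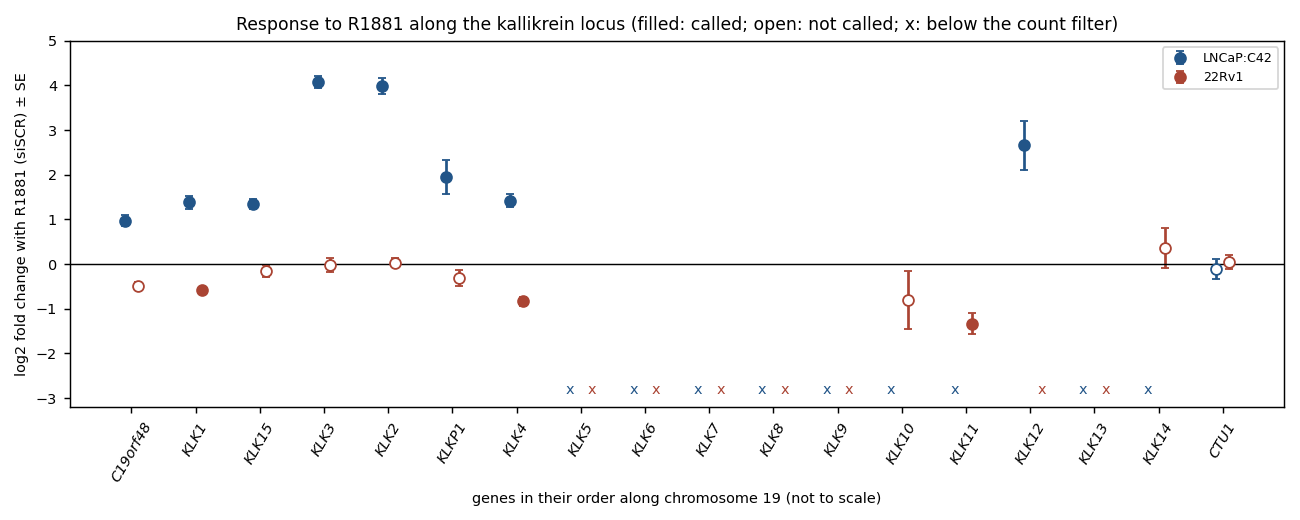
Log2 fold change with R1881 under siSCR, with its standard error, for the kallikrein genes and a neighbour on each side in their order along chromosome 19 (spacing not to scale); filled points passed the thresholds (KLK12 included, from which no call is read), open points did not, and a cross marks a gene below the count filter. KLK3 and KLK2 of LNCaP:C42 stand highest, at 4.08 and 3.99, with 1.34 to 1.95 for KLK15, KLK1, KLK4 and KLKP1 beside them.

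Genes that act on or are acted on by these proteases were examined from lists of 15 substrates, activators and receptors, 12 inhibitors and 8 other secreted or secretory prostate genes. Of the first list 10 passed the filter in LNCaP:C42, and under siSCR R1881 raised 3 and lowered 3 of them (median log2 change -0.11, against -0.03 over all genes), where 7.39% of all genes were called higher and 7.72% lower. TMPRSS2, a membrane protease that can activate kallikrein precursors, rose by 4.26 ± 0.23, and the substrates IGFBP3 (-2.82 ± 0.24), IGFBP5 (-1.44 ± 0.26) and FN1 (-1.10 ± 0.12) fell; IGFBP3 and IGFBP5 bind insulin-like growth factors and FN1 is fibronectin. In 22Rv1 R1881 raised 4 of 11 and lowered none (median -0.01), against 4.19% of all genes called higher and 9.64% lower. There TGFB2, which encodes a transforming growth factor, rose by 4.26 ± 0.21, IGFBP3 by 1.39 ± 0.08, F2RL1, the protease-activated receptor PAR2, by 0.70 ± 0.09 and LAMB3, a laminin chain, by 0.59 ± 0.12. The change of LAMB3 lay at the fold threshold and under it without the third vehicle library or the third R1881 library (0.53 and 0.56) and with library size alone (0.53). IGFBP3 thus moved in opposite directions in the lines, at 48.2 ± 5.58 and 6.81 ± 2.16 CPM in vehicle and R1881 of LNCaP:C42 and 115 ± 3.58 and 305 ± 19.6 CPM in 22Rv1, with a difference in response of 4.21 ± 0.24 (adjusted p = 8.82e-13).

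Among the inhibitors, 5 passed the filter in LNCaP:C42, of which R1881 raised 2 and lowered 2 (median 0.07), and 8 in 22Rv1, of which it raised none and lowered 4 (median -0.81, against 0.00 over all genes), beside the same shares of all genes, 7.39% higher and 7.72% lower in LNCaP:C42 and 4.19% and 9.64% in 22Rv1. Counts of this kind include genes that passed the filter only through the treatment where they are high. SERPINF2, which encodes alpha-2-antiplasmin, moved in opposite directions: its counts per library were 0 to 2 in vehicle and 23 to 37 in R1881 in LNCaP:C42 under siSCR, and 30 to 59 and 10 to 14 in 22Rv1. SERPINI1, the serpin called neuroserpin, went from 59 to 73 counts in vehicle down to 0 to 5 in R1881 in LNCaP:C42. In 22Rv1 A2M, the general protease trap alpha-2-macroglobulin, fell by 1.95 on the log2 scale, from 35.2 ± 1.08 to 9.19 ± 0.86 CPM. SPINK5, an inhibitor of kallikreins in skin, fell there by 1.10 on the log2 scale, from 12.6 ± 0.46 to 5.94 ± 0.69 CPM.

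Of the other secreted or secretory prostate genes 6 passed the filter in LNCaP:C42, where 5 rose and 1 fell (median 2.46, with 7.39% and 7.72% of all genes called higher and lower). ORM1, encoding orosomucoid, went from 0 to 2 counts per library in siSCR vehicle to 42 to 72 in R1881. It passed the filter only through the R1881 libraries. The count of 5 and the median include it, but no call is read from it. AZGP1, encoding zinc-alpha-2-glycoprotein, rose by 3.84 ± 0.25 and SPDEF, an epithelial transcription factor, by 1.99 ± 0.15, whereas ACP3, which encodes prostatic acid phosphatase, fell by 1.27 on the log2 scale. In 22Rv1 4 passed, of which none rose and 2 fell (median -0.76, with 4.19% and 9.64% of all genes called higher and lower), ACP3 by 2.80 and CRISP3, which encodes a cysteine-rich secretory protein, by 1.45 on the log2 scale. ACP3 therefore fell in both lines, at 11.2 ± 0.53 and 4.69 ± 0.36 CPM in LNCaP:C42 and 9.28 ± 1.56 and 1.34 ± 0.32 CPM in 22Rv1.

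Under METTL3 knockdown only substrates, activators and receptors were called among these lists. In LNCaP:C42 1 of 10 was called in vehicle and 0 of 10 in R1881, beside 1.2% and 0.7% of all genes. In 22Rv1 0 of 11 were called in vehicle, beside 0.202% of all genes. In R1881 1 of these 11 was called higher and 2 lower, where 3.29% of all genes were called. IGFBP5 had a log2 difference of 1.00 ± 0.22 with siMETTL3 in vehicle in LNCaP:C42 (adjusted p = 0.0369), but the call was lost without any 1 of the siSCR vehicle libraries, the first or second siMETTL3 vehicle library or the first siMETTL3 library with R1881 (adjusted p from 0.0511 to 0.2), and with only the conditions compared (0.0658). In 22Rv1 with R1881, IGFBP3 (-0.61 ± 0.07) and TGFB2 (-0.73 ± 0.15) were lower and TMPRSS2 was higher (0.92 ± 0.18). IGFBP3 fell short of 1.5-fold without the first siSCR (-0.57) or second siMETTL3 (-0.56) library with R1881 and with no filter (-0.57). The response of IGFBP3 to R1881 differed between the siRNA pools in 22Rv1 by -0.77 ± 0.11 (adjusted p = 0.00265), and no other gene of the 3 lists passed that test in either line. No inhibitor was called in any of the 4 knockdown comparisons, with 5 tested in LNCaP:C42 and 8 in 22Rv1. With 0.202% to 3.29% of all genes called, no call is what so few genes would mostly give.

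The genes whose levels followed each kallikrein most closely over the 8 condition means are given as a description, from 15327 genes with a mean of at least 1 CPM. KLK3 was followed most closely by ASRGL1 (Pearson's r = 0.997), CYP11A1, SPECC1, LBHD1 and MRPS18A, and KLK2 by MPC2 (r = 0.993), NOSTRIN, PLA2G4E, FGD4 and C15orf61. KLK4 was followed by CITED2 (r = 0.980), MACROD1, KLKP1 (r = 0.971), KDELR1 and SERPINF2. Among the members the closest pair was KLK2 and KLK15 (r = 0.979), then KLK4 and KLK1 (0.942), then KLK1 and KLK11 (0.891), and KLK3 and KLK2 had r = 0.828. KLK3 and KLK4 had r = -0.06. The 8 points are 4 conditions in each of 2 lines and share libraries, line and treatment, and values near 1 can be had from the separation of few conditions.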

How the data were processed

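RNA sequencing reads were trimmed with Trim Galore, aligned to GRCh38 with STAR and counted per gene by the authors with featureCounts v1.5.0-p1 in paired-end mode against Ensembl release 83, without a strand option. The deposited values are raw counts, 1 table per library, and the exon lengths of the same tables gave FPKM. The 24 libraries were grouped by the labels into 8 conditions of 3. Counts were tested with the edgeR (4.0.16) quasi-likelihood test after TMM scaling and filterByExpr (minimum count 10, minimum total 15), in 1 fit of 12 libraries for each line and 1 fit of all 24 for comparisons between lines, with Benjamini-Hochberg adjustment over all genes tested. DESeq2 (1.42.0), other scalings, no filter, a replicate block, fits of only the conditions compared, other thresholds and leaving out each library were alternatives, and the pipeline was tested on simulated data. CPM used TMM over all libraries. Tests of differences between responses used the adjusted p alone.

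At the median depth a gene of 1 CPM has few enough counts that counting error matters. Between the lines, a group with no count is set at 3 counts and gives a lower bound, and a group with few counts gives a ratio with its exact interval. Shares of 3 libraries were compared with exact permutation tests. The genes named were the 7 members, METTL3, FKBP5, TMPRSS2, up to 4 called genes per list and comparison with a mean of at least 1 CPM in the line, and the 5 genes most like KLK2, KLK3 and KLK4. Some genes covered by this rule are not reported here. Members and lists were chosen with earlier results of these data known. KLK1 has no RefSeq window in the table used and was not searched for motifs.

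No 2 libraries agreed within counting noise.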

Additional observations from a re-analysis of the deposited data

Results flagged for a closer look

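The difference in the response to R1881 between 22Rv1 and LNCaP:C42 passed the test for 5 members under each siRNA pool. Under siSCR the log2 response of 22Rv1 minus that of LNCaP:C42 was -4.10 for KLK3, -3.96 for KLK2, -2.26 for KLK4, -1.98 for KLK1 and -1.50 for KLK15. Under siMETTL3 it was -3.95 for KLK3, -3.90 for KLK2, -2.12 for KLK4, -1.22 for KLK1 and -1.70 for KLK15. For KLK4 and KLK1 the responses have opposite signs in the lines, whereas for KLK3, KLK2 and KLK15 that of 22Rv1 is near 0. For KLK11 the difference under siMETTL3 had an adjusted p of 0.0577 with edgeR and 0.0327 with DESeq2. KLK11 passed the filter of that comparison only through 22Rv1. In LNCaP:C42 under siMETTL3 it had 2 counts in vehicle and 7 in R1881 over the group, so no call is read from it.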

How the results depend on the processing

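The 5 members called in LNCaP:C42 with R1881 under siSCR, and the 5 whose response differed between the lines under siSCR, were called under every alternative and without any 1 library. Under siMETTL3 the R1881 calls were 4 or 5 in LNCaP:C42 and 3 or 4 in 22Rv1 (KLK10 included), with KLK1 on either side of 1.5-fold. Without a fold threshold, 1 member (KLK4) was called in 22Rv1 between the siRNA pools in R1881. The METTL3 knockdown in LNCaP:C42 was -0.61 in vehicle and -0.57 in R1881. With only the conditions compared it was -0.61 (adjusted p = 0.0540) in vehicle, with a replicate block -0.57 (adjusted p = 0.0706) in R1881, and without 1 library it ranged from -0.66 to -0.55 and from -0.65 to -0.52. Its adjusted p rose above the threshold, to at most 0.0982 in vehicle (without siSCR vehicle replicate 1 or 3 or siMETTL3 vehicle replicate 2) and 0.162 in R1881 (without siSCR vehicle replicate 2, siSCR R1881 replicate 2 or 3, or any siMETTL3 R1881 library). The block lowered the calls between the siRNA pools in R1881 in LNCaP:C42 from 115 to 39 genes and changed no call of a member; 6 of 18 same-numbered pairs of LNCaP:C42 and 1 of 18 of 22Rv1 correlated above 0.1.

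The rise in the share of KLK3 with R1881, in percentage points, was 25.9 and 23.4 in LNCaP:C42 (siSCR, siMETTL3) and 0.69 and 0.52 in 22Rv1. By raw counts it was 24.2, 21.8, 1.21 and 0.88, and by canonical transcript length 31.2, 29.4, 1.19 and 0.93. Members with an element in the promoter were 2 with 3 mismatches allowed, against 1.

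Values near 0, all uncalled, changed sign. KLK15 between the siRNA pools in R1881 in LNCaP:C42 was -0.012 with RLE size factors and with DESeq2, -0.0030 with no filter and -0.0072 with only the conditions compared. With library size alone KLK2 in 22Rv1 (R1881, siSCR) was -0.030 and KLK15 (R1881, siMETTL3) -0.055, and -0.0061 with only the conditions compared. Leaving out 1 library at a time gave these ranges. Between the siRNA pools in LNCaP:C42 they were, in vehicle, -0.37 to 0.019 for KLK2, -0.023 to 0.20 for KLK3 and -0.026 to 0.24 for KLK4. In R1881 they were -0.13 to 0.033 for KLK3 and -0.042 to 0.025 for KLK15. For the difference in response between the pools the range was -0.019 to 0.25 for KLK4. With R1881 in 22Rv1 they were, under siSCR, -0.025 to 0.11 for KLK2 and -0.11 to 0.037 for KLK3. Under siMETTL3 they were -0.26 to 0.080 for KLK3 and -0.062 to 0.092 for KLK15. Between the pools in 22Rv1 the range in vehicle was -0.040 to 0.089 for KLK1. In R1881 the ranges there were -0.067 to 0.087 for KLK15 and -1.18 to 0.073 for KLK10. For the difference in response in 22Rv1 they were -0.24 to 0.092 for KLK3, -0.0096 to 0.12 for KLK1 and -0.34 to 0.029 for KLK11.

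Library size alone moved the median log2 change of all genes with R1881 under siSCR in LNCaP:C42 from -0.03 to -0.15, and the share of lower calls from 7.72% to 11.0% of all genes. Between the lines it moved the median from 0.03 to 0.18 in vehicle and from 0.09 to 0.29 in R1881. DESeq2 called 380 genes against 197 between the siRNA pools in vehicle and 521 against 115 in R1881 in LNCaP:C42. For KLK10 in either line and KLK11 in LNCaP:C42 depth limits what can be seen.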
